A study of Mus musculus with 6 samples.

Results

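Expression of the mitochondrial protein import machinery was examined in liver RNA of Pdss2 conditional knockout mice. All probe sets annotated to exactly 1 gene symbol were taken where that symbol started with Timm or Tomm and a digit, or named Dnajc15, Dnajc19, Pam16, Grpel1, Grpel2, Samm50, Mtx1, Mtx2, Pmpca, Pmpcb, Chchd4, Gfer or Immp1l. The choice by symbol gave 68 probe sets of 35 genes, out of 45101 probe sets in all, and Dnajc19 had no probe set of its own symbol alone. Of these, 27 probe sets of 10 genes belong to the outer membrane, 15 of 9 genes to the intermembrane space, and 25 of 15 genes to the inner membrane with its motor and the peptidases, while Tomm34 is cytosolic and has 1. The mutants were 3 B6.Alb/cre,Pdss2loxP/loxP mice, in which cre is made from the albumin promoter and the loxP-flanked part of Pdss2 is therefore removed mainly in hepatocytes. The controls were 3 B6.Pdss2loxP/loxP mice, which carry the same floxed alleles without cre, so an effect of cre alone cannot be told apart from the loss of Pdss2. Mutants 1 to 3 were 176, 178 and 224 days old, controls 1 to 3 were 209, 213 and 140 days old, and all were male and caged by genotype. Pdss2 encodes a subunit of the enzyme that makes the isoprenoid tail of coenzyme Q, an electron carrier of the respiratory chain, and the study asked which metabolic pathways change when it is lost. Each liver was hybridized to 1 Affymetrix mouse array, and the values are log2 intensities, so that a difference of 1 is a doubling.

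Almost all mitochondrial proteins are made in the cytosol and threaded into the organelle as unfolded chains. The TOM complex of the outer membrane holds the receptors Tomm20, Tomm22 and Tomm70a and the channel Tomm40, and the SAM complex inserts barrel-shaped proteins into the same membrane. Small Tim chaperones carry hydrophobic precursors across the intermembrane space, the TIM22 complex inserts carriers into the inner membrane, and the TIM23 complex passes proteins with a presequence to a motor on the matrix side, after which a matrix peptidase cuts the presequence off. Liver cells are rich in mitochondria, and many genes of this machinery are read in nearly every tissue.

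The 250 bases before the start of transcription are shown for some of the genes on which the results below turn, with a known motif in capitals where 1 was found. They come from RefSeq, build GRCm38.p6, and 31 of the 35 genes were matched. Tomm7 and Timm21 were among those not matched, so theirs are not shown. The sequences run 5′ to 3′ on the strand of the gene. The Tomm20 promoter lies at chr8:126945922-126946171 on the minus strand and holds a match to the NRF1 motif in capitals. The Pmpcb promoter lies at chr5:21736910-21737159 on the plus strand and holds a match to the Ets motif in capitals. The Timm17b promoter, at chrX:7899086-7899335 on the plus strand, and the Tomm20l promoter, at chr12:71111178-71111427 on the plus strand, hold no match to the motifs searched.
Tomm20: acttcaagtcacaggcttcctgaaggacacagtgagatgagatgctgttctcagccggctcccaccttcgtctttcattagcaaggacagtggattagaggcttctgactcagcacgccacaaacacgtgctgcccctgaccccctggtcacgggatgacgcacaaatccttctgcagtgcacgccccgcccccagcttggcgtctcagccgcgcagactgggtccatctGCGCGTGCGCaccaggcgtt
Pmpcb: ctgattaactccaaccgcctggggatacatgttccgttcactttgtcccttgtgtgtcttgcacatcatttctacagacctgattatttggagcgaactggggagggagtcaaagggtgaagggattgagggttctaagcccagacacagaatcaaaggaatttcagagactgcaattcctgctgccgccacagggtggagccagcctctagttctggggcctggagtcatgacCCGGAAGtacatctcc
Timm17b: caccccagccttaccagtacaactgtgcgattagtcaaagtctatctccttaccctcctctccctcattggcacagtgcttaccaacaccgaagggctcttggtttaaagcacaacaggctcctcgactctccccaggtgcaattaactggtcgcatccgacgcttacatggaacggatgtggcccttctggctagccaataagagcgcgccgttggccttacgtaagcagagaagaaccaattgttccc
Tomm20l: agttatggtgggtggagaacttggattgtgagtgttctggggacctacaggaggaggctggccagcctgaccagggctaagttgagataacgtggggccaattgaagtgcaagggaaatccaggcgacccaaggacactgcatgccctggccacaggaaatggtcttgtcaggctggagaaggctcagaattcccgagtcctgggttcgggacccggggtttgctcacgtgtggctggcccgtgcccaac
The motifs were those of NRF1 (GCGCA and GCGC with any 1 base between them), of the Ets family with GABPA (CCGGAAG) and of YY1 (AANATGGC), factors known for reading nuclear genes of mitochondria, and both strands were searched. The Ets motif was present in 13 of the 31 matched genes (41.9%), which were Grpel1, Mtx1, Mtx2, Pmpca, Pmpcb, Timm10, Timm23, Timm29, Timm8a2, Timm8b, Tomm22, Tomm34 and Tomm70a, against 7.83% of 27025 genes and 6.91% of 32851 promoters. NRF1 matched Chchd4, Pam16 and Tomm20, or 9.68% of the matched genes, against 4.23% of all genes and 3.74% of promoters. YY1 matched Immp1l, or 3.23%, against 4.49% of all genes and 3.91% of promoters. No motif overlapped another in the promoters printed. These matches describe letters in a window and were not tested against expression.

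The arrays differed in several ways, some of which move with the groups. Array medians were 6.12 to 6.24 (log2) in mutants and 5.92 to 6.12 in controls. The probe sets of Gapdh at its 3′ end minus those at its 5′ end gave -1.78 to 0.45 in mutants and 2.02 to 2.31 in controls, while the same measure of Actb overlapped, with 2.60 to 4.50 in mutants and 3.11 to 3.90 in controls. The spiked-in bacterial BioB controls averaged 10.41 to 11.04 in mutants and 8.67 to 9.13 in controls. Markers of hepatocytes were abundant on every array, with a summed intensity over 6 genes of 57650 to 73010 in mutants and 71880 to 72710 in controls, and 0 of their 12 probe sets passed the limma test, adjusted or unadjusted. Markers of sinusoidal endothelium summed to 2974 to 5178 in mutants and 1540 to 2644 in controls, and no marker gene was at 0. At a limma adjusted p under 0.05, 2 of 8 probe sets were higher (Stab2 and Stab1) and none lower, against 1.25% and 0.746% of all probe sets. Of 38 probe sets for markers of Kupffer cells, stellate cells, bile duct, lymphocytes and red cells, 0 passed. At an unadjusted p under 0.05 in limma 10 were higher and 1 was lower, against 15.7% and 9.54% of all probe sets. The part of these differences in the results below was not tested. In liver tissue, fewer cells of a type and less RNA per cell cannot be told apart. Pdss2 itself is read by 3 probe sets, and the brightest read 6.94, 6.88 and 7.05 in the mutants against 7.46, 7.47 and 7.56 in the controls (difference -0.54, limma adjusted p = 0.118). The others differed by 0.40 and 0.35, and since their place relative to the deleted part of the gene is not known here, they do not check the deletion.

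Across the import machinery the values were mostly lower in mutants, but few single probe sets passed the test. Of the 68 probe sets, 50 had a difference (mutant minus control) below 0, or 73.5%, against 34.8% of the 45037 probe sets on the array. The median difference was -0.53, with a range of -2.21 to 1.11, against 0.17 over all probe sets and 0.09 over those brighter than the array median, to which 59 of the 68 belong. Of the probe sets brighter than the array median, 74.58% of the members and 44.12% of all had a difference below 0. The signs follow the sample labels. Oxidative phosphorylation was described by 164 probe sets, chosen by symbols of respiratory chain and ATP synthase subunits. Their median was -0.72, with 121 below 0 (73.78%), which runs against the direction that the study describes. At an unadjusted p under 0.05 in limma 73 were lower and 11 higher. At a limma adjusted p under 0.05, however, 1 was lower and 4 were higher (0.61% and 2.44%, against 0.746% and 1.25% of all). The study ranked genes for enrichment of a KEGG pathway, so gene set and measure both differ. The brightest Pdss2 probe set was lower in every mouse labelled mutant, and the other Pdss2 probe sets differed the other way. Since their place in the gene is not known here, these probe sets do not check the labels. Whether the study's ranking or the labels were turned round was not tested. All 3 mutants lay below all 3 controls on 29 probe sets (42.6%), against 10.7% of all probe sets, and above them on 5, against 21.2%. Among probe sets brighter than the array median they lay below on 45.76% of the members and 17.95% of all. Of the 164 oxidative phosphorylation probe sets, 75 had all mutants below all controls (45.73%) and 15 had all mutants above. With limma and Benjamini-Hochberg adjustment over the whole array, 1 of the 68 was lower at an adjusted p under 0.05 and 0 were higher, against 0.746% lower and 1.25% higher of all probe sets. At an unadjusted p under 0.05, 27 were lower and 5 higher, against 9.54% and 15.7% of all probe sets. With only the brightest probe set of each gene fitted, 4 of the 35 genes were lower (Tomm7, Timm17b, Timm21 and Pmpcb) and 1 was higher (Tomm20l), against 4.11% lower and 4.92% higher of 18193 genes.

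**Figure D1:**
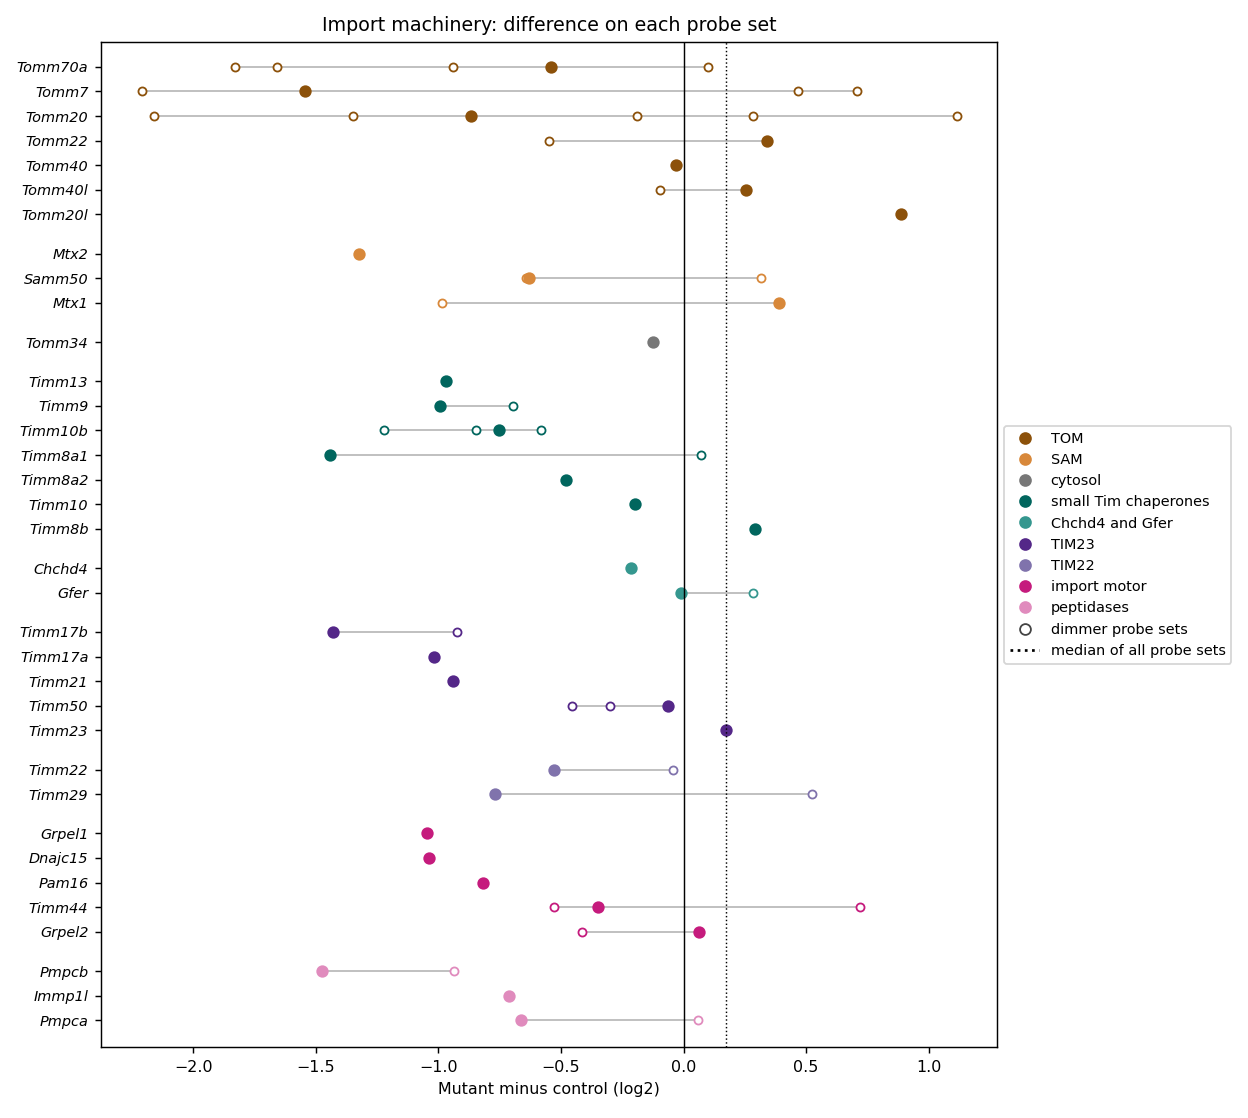
Mutant minus control difference (log2, x axis) of each probe set of the 35 genes, ordered by complex, with the brightest probe set of a gene filled and the dimmer ones open. Points of 1 gene are joined by a line, the dotted line marks the median of all probe sets (0.17), and 50 of the 68 points lie left of 0.

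Mutant 1 stood apart from the other mutants. Each probe set's deviation from its mean over the 6 arrays had a median over the 68 probe sets of 0.14 in mutant 1, -0.33 in mutant 2 and -0.40 in mutant 3, against 0.25, 0.28 and 0.30 in controls 1 to 3. Mutants 2 and 3 therefore lay well below the controls, and mutant 1 only a little. Over the outer membrane the medians were 0.27, -0.49 and -0.40 in the mutants and 0.21, 0.22 and 0.31 in the controls, so mutant 1 was within the range of the controls. Over the inner membrane with its motor and peptidases they were 0.04, -0.40 and -0.40 in mutants and 0.29, 0.30 and 0.30 in controls, and there each mutant was below each control. By the hepatocyte marker sum and the Gapdh measure, too, mutant 1 was the mutant nearest to the controls. The hepatocyte marker sum was 73010, 58020 and 57650 in mutants 1 to 3, against 72020, 71880 and 72710 in controls 1 to 3. The Gapdh 3′ minus 5′ difference was 0.45, -1.06 and -1.78 in the mutants, against 2.31, 2.02 and 2.30 in the controls. The same held for the BioB controls, the array medians and the correlations between arrays over all probe sets. BioB averaged 10.41, 11.04 and 10.7 in the mutants, against 9.129, 8.926 and 8.674 in the controls. Array medians were 6.121, 6.242 and 6.19, against 5.924, 6.025 and 6.118. With controls 1 to 3 mutant 1 correlated at 0.9308, 0.9402 and 0.9185. Mutant 2 gave 0.8443, 0.8497 and 0.8967, and mutant 3 gave 0.9093, 0.9098 and 0.8568. By other measures mutant 1 was not the nearest. The sinusoidal endothelium sum was 4019, 5178 and 2974 in mutants 1 to 3, against 2644, 2390 and 1540 in controls 1 to 3. The Actb 3′ minus 5′ difference was 2.60, 3.95 and 4.50 in the mutants, against 3.82, 3.90 and 3.11 in the controls. The part of these measures in the result was not tested. The intermembrane space gave 0.19, -0.31 and -0.45 in mutants and 0.24, 0.20 and 0.30 in controls. Mutant 1 was below all controls on 37 of the 68 probe sets, mutant 2 on 41 and mutant 3 on 48, against 10152, 11231 and 10661 of all 45037. On all probe sets of the array the medians ran the other way, with 0.03 to 0.13 in mutants and -0.16 to 0.01 in controls. Leaving out single mice changed the number of calls over the whole array. Without mutant 1, 26 of the 68 probe sets were lower (38.2%, against 5.66% of all) and 2 higher (against 2.86%), and without any other single mouse 0 passed. In those fits only 0 to 3 of all 45037 probe sets passed, so the loss was not particular to the import genes. With 1 probe set per gene, 18 genes passed without mutant 1, against 16.6% of all genes, and 0 without any other mouse, where 0 to 255 of all 18193 genes passed and Tomm7, Timm17b, Timm21 and Pmpcb had limma adjusted p values of 0.0776 to 0.168.

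**Figure D2:**
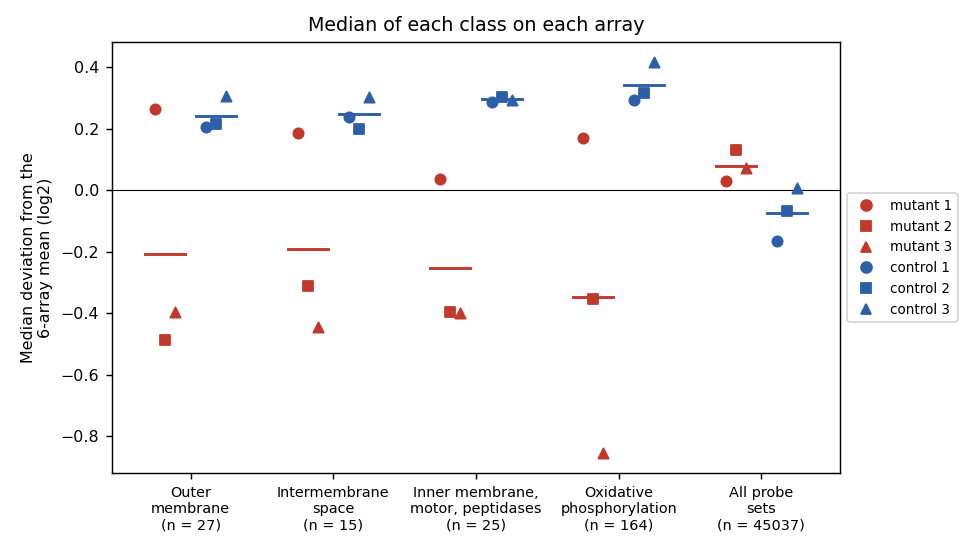
Median over the probe sets of a class of the deviation from the 6-array mean (log2, y axis), for each mutant (left, red) and each control (right, blue), with bars at the group means. Mutant 1 lies at 0.27 for the outer membrane, among the controls at 0.21 to 0.31, while mutants 2 and 3 lie at -0.49 and -0.40.

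Outer and inner membrane had nearly the same median difference per probe set but not per gene. The 27 outer membrane probe sets had a median of -0.54, with 17 below 0, 10 with all mutants below all controls and 3 with all mutants above. The 25 probe sets of the inner membrane, motor and peptidases had a median of -0.53, with 20 below 0, 15 with all mutants below and 2 with all mutants above. The 15 of the intermembrane space had a median of -0.58, with 12 below 0 and 4 with all mutants below. All mutants were thus below all controls on 37.0% of outer membrane, 60% of inner membrane and 26.7% of intermembrane space probe sets. Over the whole array they were below on 10.7% and above on 21.2%, and among probe sets brighter than the array median they were below on 17.95%. At an unadjusted p under 0.05 from limma, 9 outer membrane probe sets were lower and 3 higher, 6 of the intermembrane space were lower and none higher, and 12 of the inner membrane were lower and 2 higher. Of all probe sets, 9.54% were lower and 15.7% higher by that measure. With the brightest probe set of each gene the median was -0.28 for the outer membrane and -0.77 for the inner membrane, and with gene means it was -0.31 and -0.71. No difference between the compartments was tested. Without mutant 1 the medians were -0.85 for the outer membrane, -0.45 for the intermembrane space and -0.61 for the inner membrane.

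Tomm20, the receptor that binds presequences at the mouth of the TOM channel, held the only probe set that passed. Probe set 1435534_a_at gave 7.41, 5.84 and 5.84 in mutants 1, 2 and 3, while controls 1, 2 and 3 had 8.40, 8.67 and 8.52. All mutants were below all controls, and mutant 1 was nearest to them. The means were 6.37 ± 0.91 in mutants and 8.53 ± 0.13 in controls (SD, n = 3 each), and the mutant level was 22.4% of that in controls (difference -2.16, standard error 0.42, limma adjusted p = 0.0494). Without mutant 1 the limma adjusted p was 0.00938, and without mutant 2, mutant 3, control 1, control 2 or control 3 it was 0.122, 0.139, 0.179, 0.188 or 0.0986. The 5 other Tomm20 probe sets did not give 1 direction. The brightest, 1423079_a_at, gave 9.41, 7.66 and 7.99 in mutants and 9.05, 9.29 and 9.33 in controls (difference -0.87, limma adjusted p = 0.251), and 1455357_x_at gave 8.72, 6.98 and 7.41 in mutants and 8.85, 9.17 and 9.13 in controls (-1.35, adjusted p = 0.104). On both, mutants 2 and 3 were low and mutant 1 was near or above the controls. Probe set 1435187_at ran the other way, with 6.57, 7.04 and 7.49 in mutants and 5.70, 5.99 and 6.06 in controls (1.11, limma adjusted p = 0.0675), and every mutant was above every control. The 2 that remain, 1423080_at and 1423081_a_at, differed by 0.28 and -0.19 with overlapping groups. Tomm20l, a paralog of Tomm20 with 1 probe set, gave 7.62, 7.91 and 8.12 in mutants and 7.03, 7.08 and 6.89 in controls. All mutants were above all controls (difference 0.89, standard error 0.21), with a limma adjusted p of 0.0633 over all probe sets and 0.0389 with 1 probe set per gene. Left-out mice other than mutant 1 gave Tomm20l a limma adjusted p of 0.082 to 0.137 with 1 probe set per gene.

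Tomm7, a small subunit that steadies the TOM complex, had the lowest difference of the 68 probe sets and also 2 that were above 0. Its brightest, 1428215_x_at, gave 9.15, 8.14 and 7.65 in mutants and 9.82, 9.93 and 9.83 in controls. The mutants were spread over more than 1 log2 unit, and the controls lay close together above them (difference -1.54, standard error 0.36, limma adjusted p = 0.0641 over all probe sets and 0.0409 with 1 probe set per gene). The second, 1434732_x_at, gave 5.67, 3.11 and 3.95 in mutants and 6.52, 6.70 and 6.15 in controls (-2.21, limma adjusted p = 0.0759). On 1428214_at, however, Tomm7 gave 8.77, 8.87 and 8.10 in mutants and 7.65, 7.80 and 8.17 in controls (0.71, limma adjusted p = 0.154), with mutant 3 below control 3, and 1428216_s_at differed by 0.47. Averaged over its 4 probe sets, Tomm7 differed by -0.65 (limma adjusted p = 0.21). Tomm70a, the receptor for carrier precursors, was lower on 4 of 5 probe sets, none of which passed. The brightest, 1426676_s_at, gave 7.80, 6.72 and 6.90 in mutants and 7.97, 7.62 and 7.45 in controls (-0.54, limma adjusted p = 0.329). Mutant 1 was among the controls there. On 1417192_at, 1426675_at and 1434243_s_at the differences were -1.66, -1.83 and -0.94, with all mutants below all controls and limma adjusted p values of 0.0925, 0.0863 and 0.0627. The dim 1457353_at, with means of 3.43 in mutants and 3.33 in controls, differed by 0.10.

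**Figure D3:**
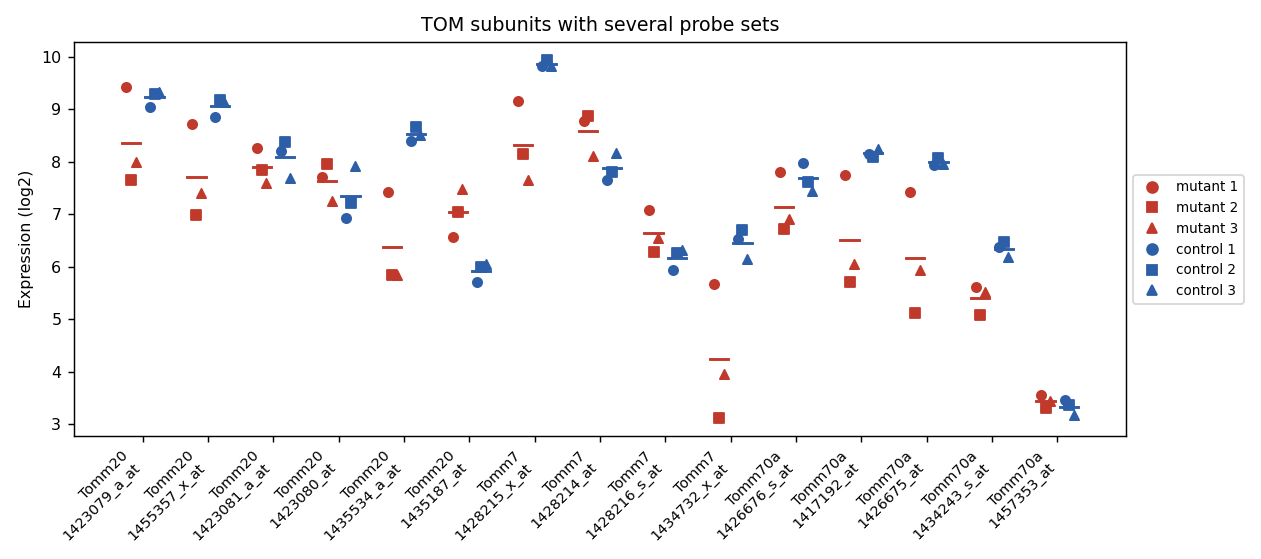
Log2 expression (y axis) on each array for all probe sets of Tomm20, Tomm7 and Tomm70a, mutants in red to the left and controls in blue, with bars at the group means. On 1435534_a_at of Tomm20 mutants lie between 5.84 and 7.41 and controls between 8.40 and 8.67, while on 1435187_at every mutant is above every control; levels of different probe sets are not comparable.

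The channel and the central receptor of TOM had differences near or above 0 on their brightest probe sets. Tomm40, which forms the pore, gave 7.48, 8.10 and 7.51 in mutants and 7.35, 7.61 and 8.22 in controls, and the groups overlapped (difference -0.03, limma adjusted p = 0.962). Its sign turned under quantile normalization (0.03). Tomm40l, a paralog of Tomm40, differed by 0.25 and -0.10 on its probe sets. Tomm22, the central receptor, gave 8.29, 8.49 and 8.50 in mutants and 8.16, 8.13 and 7.95 in controls on its brighter probe set, and 7.22, 6.32 and 6.34 in mutants against 7.11, 7.24 and 7.17 in controls on the other. Mutants were thus above controls on the brighter (0.34, limma adjusted p = 0.297), and mutants 2 and 3 below them on the dimmer (-0.55, limma adjusted p = 0.26). Tomm34, a cytosolic cochaperone that receives precursors, differed by -0.13.

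Of the SAM complex, 4 of 6 probe sets were below 0, with a median of -0.64, and none passed. Samm50, which forms its core, gave 9.76, 9.01 and 8.77 in mutants and 9.81, 9.77 and 9.85 in controls on its brightest probe set. Mutants 2 and 3 were below the controls and mutant 1 was just under the lowest of them (difference -0.63, limma adjusted p = 0.205). A second Samm50 probe set differed by -0.64 and a dim one by 0.32. The metaxins Mtx1 and Mtx2 are partners of Samm50. Mtx2 differed by -1.33 (limma adjusted p = 0.118). Mtx1 differed by -0.99 on 1418522_at, where all mutants were below all controls (limma adjusted p = 0.0575), and by 0.39 on the brighter 1418521_a_at, where the groups overlapped.

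Among the small Tim chaperones of the intermembrane space 10 of 12 probe sets were below 0, with a median of -0.72, and 0 passed. At an unadjusted p under 0.05 from limma 6 were lower, against 9.54% of all probe sets. Timm9, which forms hexamers with Timm10, gave 6.20, 6.70 and 7.87 in mutants and 8.21, 7.96 and 7.58 in controls on its brighter probe set, and mutant 3 lay above control 3 (difference -0.99, limma adjusted p = 0.189). Its other probe set differed by -0.70. Timm10 gave 8.27, 7.58 and 7.53 in mutants and 7.84, 7.94 and 8.20 in controls, and mutant 1 was the highest of the 6 (difference -0.20, limma adjusted p = 0.673). Timm10b, the relative of these that docks at TIM22, was lower on 4 of 4 probe sets, by -1.22, -0.75, -0.85 and -0.58. Timm13 differed by -0.97 and its partners Timm8a1, Timm8a2 and Timm8b by -1.44 and 0.07, -0.48 and 0.29. Timm8a2 was among the dimmest members, with means of 2.63 in mutants and 3.11 in controls.

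The oxidative folding pair of the intermembrane space had small differences. Chchd4, the oxidoreductase that traps small Tims by disulfide bonds, gave 7.42, 6.74 and 6.67 in mutants and 6.90, 7.25 and 7.32 in controls (difference -0.21, limma adjusted p = 0.655). Gfer, the oxidase that recharges Chchd4, gave 9.40, 9.49 and 8.78 in mutants and 9.16, 9.03 and 9.51 in controls (-0.01, limma adjusted p = 0.987), and 0.15 under quantile normalization. The groups of both genes overlapped, and the second Gfer probe set differed by 0.28.

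The TIM23 translocase of the inner membrane had 7 of 8 probe sets below 0, with a median of -0.69. All mutants were below all controls on 5 of them, against 10.7% of all probe sets. Timm17b, a channel subunit, gave 7.86, 6.48 and 6.79 in mutants and 8.49, 8.56 and 8.37 in controls. The means were 7.04 ± 0.72 in mutants and 8.47 ± 0.09 in controls (SD, n = 3 each), and the groups did not overlap (difference -1.43, limma adjusted p = 0.0681 over all probe sets and 0.0439 with 1 probe set per gene). The second Timm17b probe set differed by -0.92. Timm17a, the other form of that subunit, gave 7.62, 6.49 and 7.21 in mutants and 8.16, 8.18 and 8.04 in controls (-1.02, limma adjusted p = 0.0925). All mutants were again below all controls. Timm21, which links TIM23 to the outer membrane and to the respiratory chain, gave 6.98, 6.41 and 7.09 in mutants and 7.67, 7.91 and 7.71 in controls. Here mutant 1 was lower than mutant 3, and all mutants were below all controls (difference -0.94, standard error 0.24, limma adjusted p = 0.0709 over all probe sets and 0.0452 with 1 probe set per gene). Timm23, the core of the channel, gave 10.30, 10.50 and 10.76 in mutants and 10.46, 10.56 and 10.02 in controls, with overlap and a difference of 0.17 (limma adjusted p = 0.685). Timm50, the presequence receptor of TIM23, gave 7.25, 7.70 and 7.12 in mutants and 7.26, 7.53 and 7.48 in controls on its brightest probe set. The groups overlapped (difference -0.07, limma adjusted p = 0.888), and its others differed by -0.46 and -0.30.

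**Figure D4:**
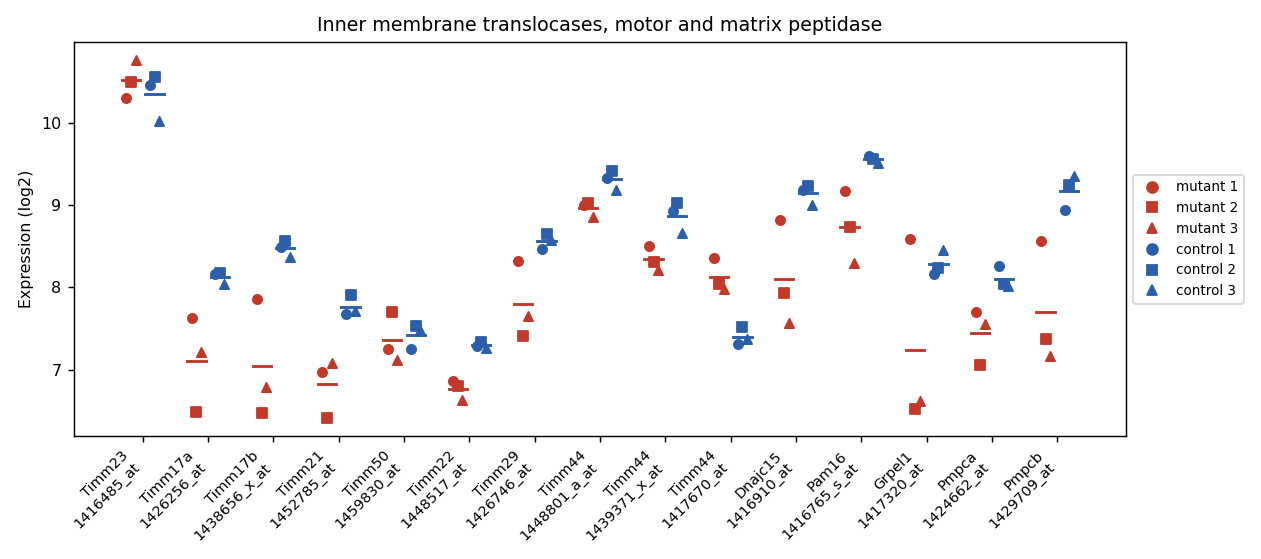
Log2 expression (y axis) on each array for 15 probe sets of the inner membrane translocases, the motor and the matrix peptidase, mutants in red to the left and controls in blue, with bars at the group means. Timm17a, Timm17b, Timm21, Timm22, Timm29, Dnajc15, Pam16, Pmpca and Pmpcb have every mutant below every control, Grpel1 has mutant 1 above the controls, Timm23 and Timm50 overlap, and Timm44 runs in both directions.

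Of the TIM22 complex, Timm22, its channel, gave 6.87, 6.81 and 6.63 in mutants and 7.29, 7.34 and 7.27 in controls on its brighter probe set. All mutants, mutant 1 included, were below all controls with little spread (difference -0.53, standard error 0.18, limma adjusted p = 0.127). The dimmer probe set of Timm22 differed by -0.04. Timm29, a subunit of TIM22 known from human cells, gave 8.32, 7.41 and 7.66 in mutants and 8.47, 8.65 and 8.57 in controls on 1426746_at (-0.77, limma adjusted p = 0.128). On 1452175_at it gave 6.97, 7.21 and 7.21 in mutants and 6.55, 6.69 and 6.55 in controls (0.53, limma adjusted p = 0.135). The 2 probe sets of Timm29 thus separated the groups in opposite directions.

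Of the import motor, 6 of 8 probe sets were below 0, with a median of -0.47. All mutants were below all controls on 5 and above them on 1, against 10.7% and 21.2% of all probe sets. Timm44, which anchors the motor's Hsp70 at the channel, gave 9.00, 9.02 and 8.86 in mutants and 9.33, 9.42 and 9.19 in controls on its brightest probe set (difference -0.35, limma adjusted p = 0.279). On 1439371_x_at it gave 8.50, 8.31 and 8.21 in mutants and 8.93, 9.02 and 8.66 in controls (-0.53, limma adjusted p = 0.152). On 1417670_at it gave 8.35, 8.04 and 7.98 in mutants and 7.32, 7.51 and 7.38 in controls (0.72, limma adjusted p = 0.0824). None of these 3 probe sets had overlapping groups, and their signs differed. Grpel1, the nucleotide exchange factor of the motor, gave 8.58, 6.52 and 6.62 in mutants and 8.17, 8.24 and 8.46 in controls. Mutant 1 was the highest of the 6 and the other mutants the lowest (difference -1.05, limma adjusted p = 0.251). Without mutant 1 the difference of Grpel1 was -1.72 (limma adjusted p = 0.0101). Dnajc15, a J protein of the inner membrane, differed by -1.04 and Pam16, its J-like partner, by -0.82, both with all mutants below all controls (limma adjusted p = 0.103 and 0.101). Grpel2, the paralog of Grpel1, differed by 0.06 and -0.41.

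The peptidases Pmpcb, Pmpca and Immp1l had 4 of 5 probe sets below 0, with a median of -0.71. Pmpcb, the catalytic subunit of the matrix processing peptidase, gave 8.57, 7.37 and 7.17 in mutants and 8.94, 9.24 and 9.35 in controls on its brighter probe set. The means were 7.70 ± 0.76 in mutants and 9.18 ± 0.22 in controls (SD, n = 3 each), with no overlap (difference -1.47, limma adjusted p = 0.0709 over all probe sets and 0.0472 with 1 probe set per gene). The second Pmpcb probe set differed by -0.94. Pmpca, its partner subunit, gave 7.71, 7.06 and 7.55 in mutants and 8.26, 8.05 and 8.01 in controls on the brighter probe set (-0.67, limma adjusted p = 0.128) and differed by 0.06 on the other. Immp1l, a peptidase of the inner membrane, differed by -0.71 with mutant 1 above the controls.

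Several probe sets of a gene often disagreed. Of the 19 genes with more than 1 probe set, 13 had differences of both signs (68.4%), against 4573 of 9010 such genes on the array (50.8%). For Tomm20, Tomm7, Timm29 and Timm44 both signs reached an unadjusted p under 0.05 in limma. How many genes of the whole array did so was not computed. Of all single probe sets, 9.54% were lower and 15.7% higher by that measure. The name of a probe set tells how its probes were chosen: a plain _at names probes that read 1 transcript, _a_at those shared by transcripts of 1 gene, _s_at those shared by several transcripts, and _x_at those that may bind others. The median difference was -0.21 over 37 _at members, -0.40 over 14 _a_at, -0.68 over 6 _s_at and -0.85 over 11 _x_at, against 0.19, 0.12, 0.06 and 0.05 over all probe sets of those kinds. Values of the _s_at and _x_at sets, among them the brightest of Tomm7 and Timm17b, may include RNA of related sequences such as processed pseudogenes. Where each probe set lies along its transcript is not known here.

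Of 15 further genes that act with the import machinery, such as matrix chaperones, insertases and peptidases, 14 were measured by 34 probe sets, with a median difference of -0.15 over the probe sets and -0.69 over the brightest of each gene, against -0.53 and -0.63 for the members. At a limma adjusted p under 0.05, 0 were lower and 1 was higher, against 0.746% and 1.25% of all probe sets. At an unadjusted p under 0.05 in limma, 9 were lower and 1 higher, against 9.54% and 15.7% of all. The higher one was probe set 1431274_a_at of Hspa9, the Hsp70 that drives the motor. It gave 9.50, 8.94 and 9.37 in mutants and 6.57, 7.35 and 6.98 in controls (difference 2.30, standard error 0.27, limma adjusted p = 0.0267). All mutants, mutant 1 included, were far above all controls. The brightest Hspa9 probe set, 1418503_at, gave 8.84, 7.67 and 7.66 in mutants and 8.94, 9.02 and 9.10 in controls. It ran the other way round (-0.96, limma adjusted p = 0.128). The remaining Hspa9 probe sets, 1418504_at, 1447728_x_at and 1453811_at, differed by -0.40, 0.02 and 0.21 with overlapping groups.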

How the data were processed

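Total RNA from the livers of 3 mutants and 3 controls was measured on 1 Affymetrix array each, with groups as the labels give them. The authors used dChip to normalize the arrays and to summarize the perfect-match probes of each set, and the deposited log2 values (0 to 14.629, with 40 values of 0) were used as they were. They come with no detection calls, so signal over background is unknown. No dChip version is given. The arrays are named in the methods as those of C. elegans, but carry mouse probe sets.

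Gene symbols were those of the platform annotation: of the 45037 probe sets left after 64 array controls were set aside, 34945 had 1 symbol, 932 several and 9160 none. All 45037 were fitted with limma 3.58.1 (lmFit, eBayes) in R 4.3.3, two-sided, with Benjamini-Hochberg adjustment over all and a threshold of 0.05. A second fit used the probe set of highest mean for each of 18193 genes. Lists were described by counts and medians, without a test, and an exact permutation of 3 mice against 3 cannot give a p below 0.1. Values on every array were given for member probe sets past the threshold, for the brightest probe set of the main subunits, and for genes whose probe sets differed in both directions at an unadjusted p under 0.05. Timm21 and Tomm20l were added because they passed with 1 probe set per gene. Members, lists and motifs were chosen with earlier results of these data known.

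Fits were repeated with quantile normalization or median centring, on bright probe sets or those of 1 symbol only, with eBayes trend and robust settings, with age or the replicate number in the model, on gene means, and without each mouse in turn. A fit without mutant 2 and control 3 was chosen after seeing the data. Figures were drawn with matplotlib 3.10.9.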

Additional observations from a re-analysis of the deposited data

How the results depend on the processing

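Median differences were followed for the outer membrane, the intermembrane space, the inner membrane with motor and peptidases, and all members. They stayed below 0 in every setting in which they were computed. In that order they ranged from -0.85 to -0.28, -0.77 to -0.37, -0.77 to -0.46 and -0.70 to -0.32. They were not computed for probe sets of 1 symbol only, eBayes trend and robust settings, age, the replicate number, or the fit without mutant 2 and control 3. The median over all probe sets was 0.17 as deposited, 0.04 after quantile normalization and 0.01 after centring. The number of members past the threshold was 1. It was 0 after quantile normalization (228 lower and 461 higher over the whole array) or centring (150 and 150), against 336 and 561 as deposited. It was 9 of 59 among bright probe sets (6 lower, 3 higher, against 13.5% of all bright probe sets), 2 with probe sets of 1 symbol only (against 3.79%), 5 with age as a covariate (4 lower, 1 higher, against 5.58% of all), and 5 of 35 genes with the brightest probe set of each. Leaving out each mouse gave 0 to 28 member probe sets (0 to 3840 over the whole array) and, with 1 probe set per gene, 0 to 18 genes in place of 5 (0 to 3020 of all genes). Only the omission of mutant 1 gave members, and without any other mouse 0 to 3 probe sets and 0 to 255 genes passed in all. With the mean of all probe sets per gene 1 gene passed, Tomm20l (limma adjusted p = 0.0498), against 2.76% of all genes. Without mutant 2 and control 3 the number was 0, as it was over the whole array.

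Replicate numbers did not pair the mice: deviations of same-numbered mutants and controls correlated at 0.061, -0.503 and -0.56. The labels tie control 1 to mutant 3, which correlated at 0.453, and mutant 2 with control 3 gave 0.617. No block could be built from 1 tied pair. With a replicate block the number of members past the threshold was 0, as it was over the whole array. Tomm20 1435534_a_at then had a limma adjusted p of 0.186, against 0.0634 after quantile normalization and 0.0594 after centring. Values near 0 turned sign. Gfer 1452272_a_at was 0.15 after quantile normalization and 0.035 with age, and -0.14 to 0.21 with mice left out. Tomm40 was 0.034 and 0.017 under the same settings and -0.23 to 0.22 with mice left out, and Timm50 1459830_at was -0.24 to 0.053 with mice left out. Why these settings moved the values was not tested. The 6 arrays limit the precision of all values.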

Other observations

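Probe sets annotated to an import gene together with another symbol were not counted among the members. Dnajc19, a J protein of the motor, shares 3 with the pseudogene Dnajc19-ps. The first of these gave 7.91, 5.66 and 5.37 in the mutants and 7.70, 7.79 and 8.02 in the controls, a difference of -1.52 (limma adjusted p = 0.169), with mutant 1 among the controls. The others differed by -0.49 and -1.02. The small TOM subunits Tomm6, which shares 2 with Prickle4, and Tomm5, which shares 1 with Gm8069, differed by -1.03 and -0.44 and by -0.23. All 6 were below 0, and none passed the test.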
